A study of Mus musculus with 6 samples.

Results

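Glycolysis and the transcriptional answer to low oxygen were followed in mouse leukaemia cells through 42 genes, taken by symbol from the 27179 genes of the deposited count table. Of these, 20 encode glycolytic enzymes or transporters of glucose and lactate, 4 encode kinases that set glycolytic flux, 6 belong to the hypoxia-inducible factor (HIF) pathway, and 12 are other hypoxia-inducible genes, among them Vegfa. The leukaemia cells of both groups were of C57BL/6 strain and are labelled A/E9a;NRASG12D;Ifnar1-/-. They thus carry the A/E9a fusion oncogene and a mutant NRAS, and they lack a receptor chain for type I interferons (Ifnar1). One group had panobinostat, an inhibitor of histone deacetylases, for 3 days. The other had vehicle for the same time. GFP-positive cells negative for propidium iodide were then sorted from spleens, and 3 mRNA libraries were made per group. Whether each library stands for its own mouse is not in the labels, and p-values here measure library-to-library spread alone, which may be technical.

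Glycolysis turns glucose into pyruvate in the cytosol, and lactate dehydrogenase and lactate exporters let it run without oxygen. HIF consists of an oxygen-labile alpha subunit and the stable partner Arnt. Prolyl hydroxylases of the Egln family mark the alpha subunit when oxygen is present, and the Vhl ubiquitin ligase then removes it. In low oxygen the dimer binds short DNA elements and raises many glycolytic genes, the angiogenic ligand Vegfa and genes of mitophagy and collagen synthesis. Many leukaemias and other fast-growing cells run glycolysis at a high rate also when oxygen is at hand.

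Library totals ran from 31989622 to 35962605 counts. Levels are given as CPM, counts scaled to a common library size. The upper limit left by a zero is 3 counts, or 0.0834 to 0.0948 CPM depending on the library, for counting error only. Vehicle library 1 stood apart from its group: the correlation of log2 CPM across genes, given as a description, was 0.942 with vehicle library 2 and 0.941 with vehicle library 3, but 0.984 with panobinostat library 3. Panobinostat library 1 stood apart too, with an r of 0.971 and 0.963 with panobinostat libraries 2 and 3, which had an r of 0.987 with each other. Of the markers checked, several of the mast cell and erythroid lists were abundant in every library. Among the mast cell list were Kit (121 to 266.5 CPM), Gata2 (649 to 1112 CPM), Hdc (420 to 1325 CPM) and Il1rl1 (760 to 1218 CPM). Others of that list were low in some libraries: Mcpt8 (0 to 3.45 CPM), Tpsb2 (0.0562 to 1.72 CPM), Tpsab1 (0.406 to 15.5 CPM) and Prss34 (0.415 to 9.51 CPM). So were Fcer1a (2.99 to 60.8 CPM) and Cpa3 (6.35 to 210 CPM). All of these low ones but Fcer1a were highest in panobinostat library 1. Among the erythroid list were Klf1 (171 to 324 CPM) and Hba-a1 (605 to 7689 CPM). The 7 monocyte and macrophage markers summed to 9.56 to 19.9 CPM in panobinostat and 15.4 to 19.4 CPM in vehicle libraries, mostly from Cd68, Csf1r and Lyz2. The 8 granulocyte markers summed to 1.06 to 4.47 CPM in panobinostat and 2.53 to 5.54 CPM in vehicle libraries, and Elane was at 0 in 5 libraries.

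The core of the HIF binding element, ACGTG or GCGTG, was searched on both strands in RefSeq promoter windows of GRCm38.p6, from 250 bases before to 50 after a gene's start. A window was found for 37 of the 42 genes, and none for Bhlhe40, Bnip3l, Epas1, Ndrg1 and Slc2a3. At least 1 core stood in 41 of the 53 windows of members (77.4%), against 43.8% of all 32851 windows. Both cores contain CG, and the median window of members held 21 CG pairs, against 7 over all windows. The longer E-box CACGTG holds ACGTG on both strands and is bound by MYC and other factors as well. It stood in 11.3% of the windows of members, against 7.15% of all. These matches are descriptions of the sequence and show no binding.

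Stretches before the start of 7 members are shown because these genes had high panobinostat or high single-library values in the results that follow. Capitals mark the core in all but the first. In Vegfa they mark the GC box GGGCGG (searched with its complement CCGCCC), which stood in 67.9% of windows of members and 35.7% of all. The Vegfa stretch covers the 250 bases before its upstream start, whose window held no core, and its GC boxes begin 72 and 62 bases before that start. The second Vegfa window of the table, at an inner start, held cores 218 and 211 bases before it.
Vegfa (chr17:46032378-46032627, minus strand): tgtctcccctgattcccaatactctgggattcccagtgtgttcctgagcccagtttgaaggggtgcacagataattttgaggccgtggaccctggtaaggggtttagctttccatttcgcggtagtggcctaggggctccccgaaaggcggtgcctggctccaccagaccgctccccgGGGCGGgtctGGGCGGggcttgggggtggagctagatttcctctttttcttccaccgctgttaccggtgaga
Pgk1 (chrX:106186930-106186989, plus strand): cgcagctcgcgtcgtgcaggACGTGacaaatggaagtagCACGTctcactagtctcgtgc
Ldha (chr7:46845639-46845698, plus strand): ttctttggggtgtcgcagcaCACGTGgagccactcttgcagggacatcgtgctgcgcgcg
Slc16a3 (chr11:120949007-120949066, plus strand): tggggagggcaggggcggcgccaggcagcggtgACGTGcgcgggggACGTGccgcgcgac
Bnip3 (chr7:138909582-138909641, minus strand): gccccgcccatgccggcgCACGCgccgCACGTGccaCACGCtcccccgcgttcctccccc
Egln1 (chr8:124949305-124949389, minus strand): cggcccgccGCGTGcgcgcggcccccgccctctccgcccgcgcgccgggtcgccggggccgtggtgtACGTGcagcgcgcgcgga
Pfkfb3 (chr2:11502121-11502165, minus strand): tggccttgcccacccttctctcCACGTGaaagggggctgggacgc
In these stretches the Pgk1 cores begin 150 and 131 bases before the start, and those of Slc16a3 27 and 14 bases before it. Ldha and Pfkfb3 each hold the core as a CACGTG E-box, and Bnip3 holds an E-box between a pair of GCGTG cores read on the other strand. The stretches were picked by their values and do not stand for all members. Gpi1 and Tpi1, whose panobinostat libraries were all above vehicle, held no core in their windows. Hk1, Pgk1 and Ldha, which also separated the groups, held cores in some or all windows. So did Pfkm, which had a lower estimate, and Slc16a1, which hardly differed between the groups. A link between cores and levels was not tested.

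The comparison of panobinostat with vehicle asks which of these transcripts differ with the drug. Most had a higher estimate with panobinostat, but none passed the test over all genes. Of the 42 genes, 37 passed the filter on low counts. Among these, 31 had a higher and 6 a lower estimate, and the median log2 fold change was 0.52, where 50.2% of all 13207 genes tested had a higher estimate with a median of 0.00. In edgeR's quasi-likelihood test 0 members were called, as were 0 of all genes tested (0.0%), and every tested member's adjusted p was 0.998. An unadjusted p under 0.05 was found for 6 members and for 301 genes in all, 2.28% of those tested. DESeq2 called 1 member, Vegfa, where it called 0.0544% of genes higher and 0.0156% lower. Panobinostat libraries were all above vehicle libraries for 6 members, namely Hk1, Gpi1, Tpi1, Pgk1, Ldha and Vegfa, against 3.79% of all genes. They were all below for 0 tested members, against 3.63% of all genes.

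**Figure D1:**
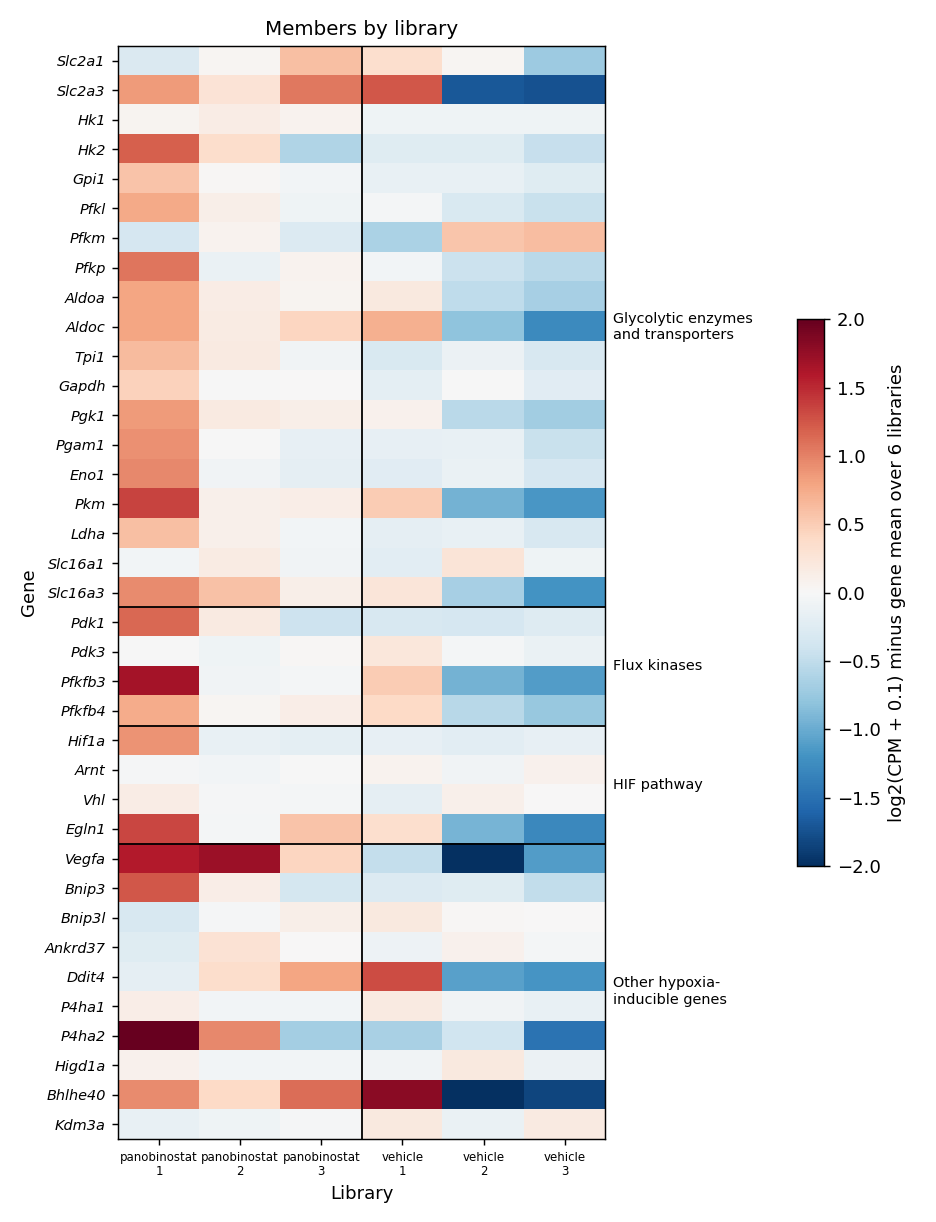
Heat map of the 37 tested members in the 6 libraries, panobinostat left of the line and vehicle right of it. Colour is log2(CPM + 0.1) minus the gene's mean over the libraries. Panobinostat library 1 is the highest library for 22 of the genes (59.5%, against 21.3% of all genes tested). Vehicle library 3 is the lowest for 25 (67.6%, against 18.1% of all genes tested).

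The glycolytic enzymes and transporters, 19 of 20 tested, had 18 higher estimates and 1 lower, with a median log2 fold change of 0.57. The other hypoxia-inducible genes, 10 of 12 tested, had 7 higher and 3 lower, with a median of 0.13. The difference between these medians was 0.44. It rested on single libraries: it was 0.056 without panobinostat library 1 and 0.13 without vehicle library 1. On log2 CPM values from which the gene's own mean had been taken, the glycolytic median minus the other hypoxia median was 0.68, -0.10 and 0.01 in panobinostat libraries 1, 2 and 3, against -0.15, 0.03 and -0.12 in vehicle libraries 1, 2 and 3. Panobinostat library 1 alone stood far from the other 5. The 20 glycolytic members took 1.09, 0.712 and 0.683% of all counts in panobinostat libraries 1, 2 and 3, against 0.671, 0.571 and 0.520% in vehicle libraries 1, 2 and 3. In sorted bulk cells, more RNA per cell and more cells of a glycolytic kind cannot be told apart.

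**Figure D2:**
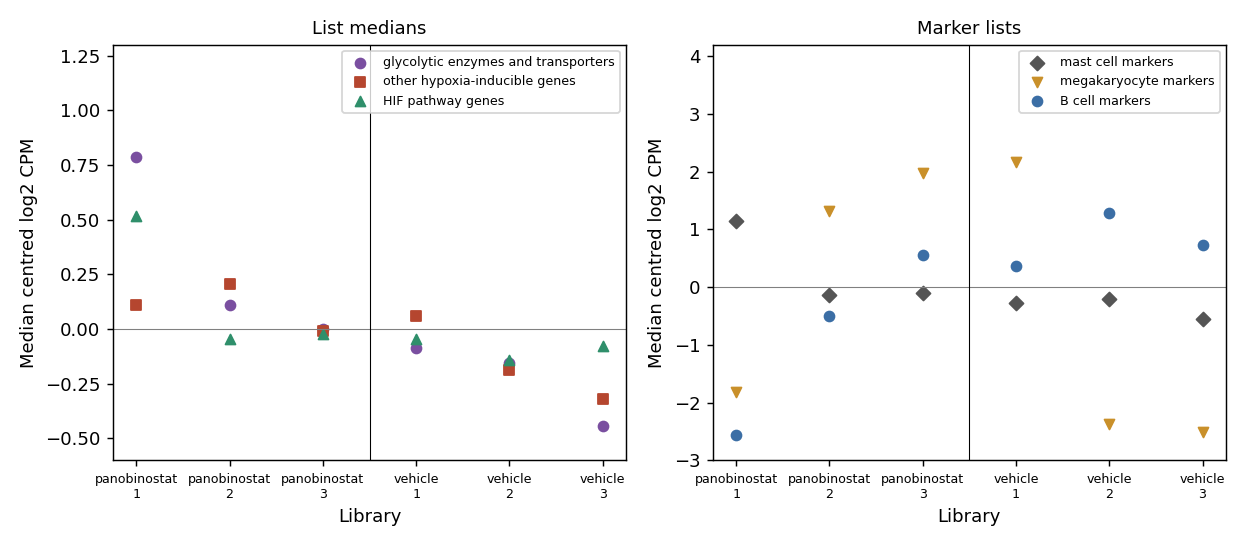
Median centred log2 CPM in each library for 3 groups of members (left) and for markers of mast cells, megakaryocytes and B cells (right). The glycolytic median stands at 0.79 in panobinostat library 1 and between -0.44 and 0.11 in the other libraries. The median of the mast cell markers is also highest in panobinostat library 1.

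Sums over marker lists of cell kinds also set panobinostat library 1 apart. Mast cell markers, 12 in the list, summed to 4984, 2806 and 2907 CPM in panobinostat libraries, against 2657, 2831 and 2995 CPM in vehicle libraries 1, 2 and 3. Of the 11 tested, 8 were highest in panobinostat library 1, as were 21.3% of all genes tested. Kit and Il1rl1 were highest in vehicle library 3, and Fcer1a in vehicle library 1. None was at 0 throughout, and Mcpt8 was at 0 in 1 library. The erythroid sum was lowest in panobinostat library 1, at 1901 CPM. It was 9610 and 11970 CPM in panobinostat libraries 2 and 3 and 4813 to 12200 CPM in vehicle libraries. The 9 B cell markers summed to 4.86, 11.7 and 27.0 CPM in panobinostat libraries and 26.2, 41.4 and 29.6 CPM in vehicle libraries 1, 2 and 3. Pax5 was at 0 in 1 library. Whether these markers come from the leukaemia cells or from other cells was not tested, nor was the part of such cells in the members' values.

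Among the transporters that bring glucose in, Slc2a1 (GLUT1) had 90.0, 113 and 168 CPM in panobinostat libraries 1, 2 and 3, against 140, 114 and 66.5 CPM in vehicle libraries 1, 2 and 3. The groups overlapped in part: panobinostat library 3 was above all vehicle libraries and vehicle library 3 below all panobinostat libraries. The log2 fold change was 0.21 (SE 0.34). Slc2a3 (GLUT3), the high-affinity form, had 396, 266.5 and 459 CPM in panobinostat libraries and 521, 68.1 and 65.8 CPM in vehicle libraries. Vehicle library 1 was the highest of all, and vehicle libraries 2 and 3 were the lowest by far. The log2 fold change of Slc2a3 was 0.78 (SE 0.84). It was 2.47 without vehicle library 1, where edgeR's quasi-likelihood test gave an adjusted p of 0.0268, against 0.998 over all 6 libraries. That library held the highest Slc2a3 value, so leaving it out was bound to raise the estimate, and the call is no independent support. In that setting 2.0% of all genes tested were called higher.

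Of the monocarboxylate transporters, Slc16a1 (MCT1), which carries lactate both ways, had 114 to 135 CPM in panobinostat and 104 to 144 CPM in vehicle libraries. Slc16a3 (MCT4), which exports lactate, had 180, 140 and 101.5 CPM in panobinostat libraries 1, 2 and 3, against 110, 59.1 and 40.8 CPM in vehicle libraries 1, 2 and 3. Vehicle library 1 reached just above panobinostat library 3, and the other panobinostat libraries were above all vehicle libraries. The log2 fold change was 1.01 (SE 0.40) for Slc16a3 and 0.02 (SE 0.15) for Slc16a1.

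Hexokinase traps glucose in the cell. Hk1, the common form, had 793, 840 and 795 CPM in panobinostat libraries 1, 2 and 3, against 716.5, 717 and 714 CPM in vehicle libraries 1, 2 and 3. The groups did not overlap, and the difference was small, at a log2 fold change of 0.18 (SE 0.09). Hk2, the form that HIF can induce, had 52.0, 29.0 and 14.8 CPM in panobinostat libraries and 19.1, 19.1 and 16.4 CPM in vehicle libraries. Only panobinostat libraries 1 and 2 exceeded vehicle, and library 3 was the lowest of the 6. Gpi1, the next enzyme, had 869, 594 and 565 CPM in panobinostat libraries, against 531, 530 and 498 CPM in vehicle libraries, with no overlap and a log2 fold change of 0.38 (SE 0.18). Without panobinostat library 1 the log2 fold change of Gpi1 was 0.16.

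Phosphofructokinase, the committed step, has a liver, a muscle and a platelet form. Pfkl had 240, 153 and 133.5 CPM in panobinostat libraries 1, 2 and 3, against 138, 115 and 104 CPM in vehicle libraries 1, 2 and 3. Pfkp had 251, 109 and 125 CPM in panobinostat libraries and 115.5, 88.5 and 82.3 CPM in vehicle libraries. For both, vehicle library 1 exceeded the lowest panobinostat library, which was library 3 for Pfkl and library 2 for Pfkp. Pfkm was the one glycolytic member with a lower estimate, with 4443, 5813 and 4364 counts in panobinostat libraries and 3166, 7983 and 8240 counts in vehicle libraries, a log2 fold change of -0.45 (SE 0.33). Its lowest value was in vehicle library 1 and its highest were in vehicle libraries 2 and 3.

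Aldolase splits the sugar, and Tpi1 interconverts its products. Aldoa had 1263, 808 and 759 CPM in panobinostat libraries 1, 2 and 3, against 838, 516 and 462 CPM in vehicle libraries 1, 2 and 3. Vehicle library 1 overlapped the panobinostat group, and the other vehicle libraries lay below it. The retrogene copies Aldoart1 and Aldoart2 held 7.22 to 7.72% and 2.34 to 2.60% of the counts of their pair with Aldoa. Aldoc, the brain form, had 10.3 to 16.0 CPM with panobinostat and 3.74 to 15.2 CPM with vehicle, and its log2 fold change was 0.68 over all libraries and 1.52 without vehicle library 1. Tpi1 had 796.5, 583 and 494 CPM in panobinostat libraries and 419, 474 and 415 CPM in vehicle libraries, with no overlap. Its log2 fold change was 0.52 (SE 0.19), and 0.31 without panobinostat library 1.

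The tested members of the later steps, which yield ATP, pyruvate and lactate, were all higher by estimate. Outside the members, enzymes of these steps went both ways. The log2 fold change was -0.54 for Pklr and -0.10 for Eno3, against 0.21 for Pgam2 and 0.08 for Gapdhs. Pgk1 (chromosome X, 106187100 to 106203699), phosphoglycerate kinase, had 735.5, 465 and 441 CPM in panobinostat libraries 1, 2 and 3, against 435, 281 and 253 CPM in vehicle libraries 1, 2 and 3. The groups did not overlap, although vehicle library 1 was close to panobinostat library 3, and the log2 fold change was 0.76 (SE 0.29). Ldha, lactate dehydrogenase A, had 1605, 1139 and 1014 CPM in panobinostat libraries and 938, 950 and 852 CPM in vehicle libraries, a log2 fold change of 0.46 (SE 0.19) with no overlap. Without panobinostat library 1 it was 0.24. Pkm, pyruvate kinase of muscle and dividing cells, had 958, 405 and 414 CPM in panobinostat libraries and 534, 196 and 168 CPM in vehicle libraries. Its libraries numbered 1 were the highest of each group, and the log2 fold change was 0.99 (SE 0.56). It was 0.46 without panobinostat library 1 and 1.69 without vehicle library 1.

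Pgam1 and Eno1 were high in a single library. Pgam1, phosphoglycerate mutase, had 557, 293 and 263 CPM in panobinostat libraries and 262, 266 and 216 CPM in vehicle libraries 1, 2 and 3. Eno1, enolase, had 1661, 814 and 748 CPM in panobinostat libraries and 724, 776 and 671 CPM in vehicle libraries. Outside panobinostat library 1 both differed little between the groups, and their log2 fold changes of 0.58 and 0.57 dropped to 0.17 and 0.11 without it. Counts of Eno1 are uncertain, since its near-identical copy Eno1b held 45.1 to 45.3% of the pair's counts in every library. Gapdh, which has many near-identical pseudogenes in the mouse, had 188, 135.5 and 137 CPM in panobinostat libraries and 119, 136 and 116 CPM in vehicle libraries. Per kilobase of exon it averaged 33.5 CPM, against 327 for Ldha and 194 for Pgk1. The exon length used, the union of all annotated exons, was 4133 bases for Gapdh, 3310 for Ldha and 2244 for Pgk1. How reads shared with the Gapdh pseudogenes were counted was not tested. Eno2, the neuronal enolase, did not exceed 0.237 CPM and was not tested.

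**Figure D3:**
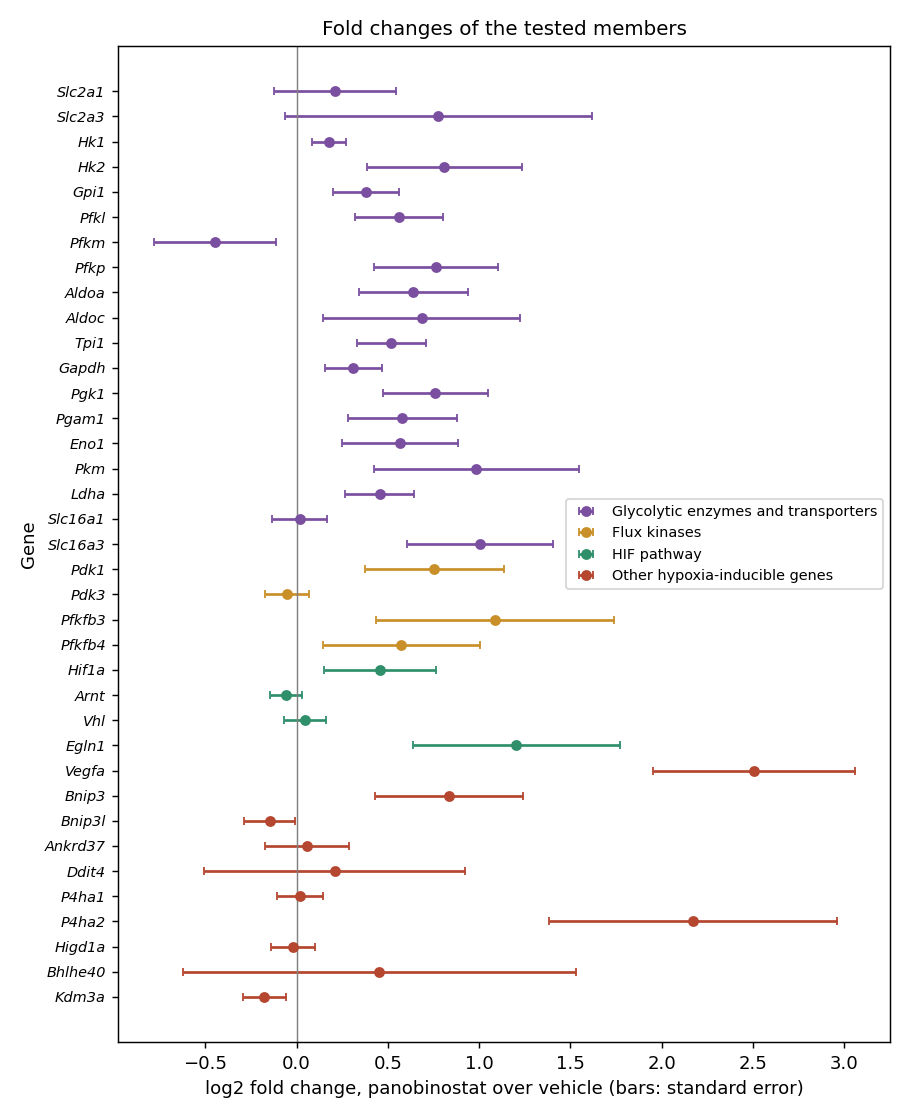
Log2 fold change of panobinostat over vehicle for the 37 tested members, with standard errors as bars, coloured by group. Vegfa (2.51) and P4ha2 (2.17) lie farthest to the right, and Pfkm (-0.45) farthest to the left.

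The shares of isozymes within a step varied between libraries for some steps and little for others, with no test made. Exon length is the union of all annotated exons of a gene, not that of 1 transcript, and the shares depend on it. It was 3340 bases for Pfkm, 6675 for Pfkl and 13401 for Pfkp. In CPM, Pfkm (123.5) was below Pfkl (240) and Pfkp (251) in panobinostat library 1. It was above both in panobinostat library 2 and in vehicle libraries 2 and 3. Per kilobase of exon, Pfkm made up 40.4, 61.2 and 56.9% of the phosphofructokinase level in panobinostat libraries 1, 2 and 3, against 50.6, 74.2 and 76.7% in vehicle libraries 1, 2 and 3. Slc2a3 made up 68.1, 53.2 and 56.9% of the level of the glucose transporters in panobinostat libraries, against 64.2, 22.4 and 32.4% in vehicle libraries. Slc16a3 made up 56.6, 46.4 and 42.5% of the level of the lactate transporters in panobinostat libraries, against 47.0, 25.5 and 23.1% in vehicle libraries. In each of these 3 steps vehicle library 1 lay within the range of the panobinostat values, and vehicle libraries 2 and 3 lay apart from both. Hk1 held 91.4 to 97.3% of the hexokinase level over the 6 libraries, and Aldoa 98.0 to 99.1% of the aldolase level. Ldhb, the heart form of lactate dehydrogenase, did not exceed 0.0580 CPM.

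**Figure D4:**
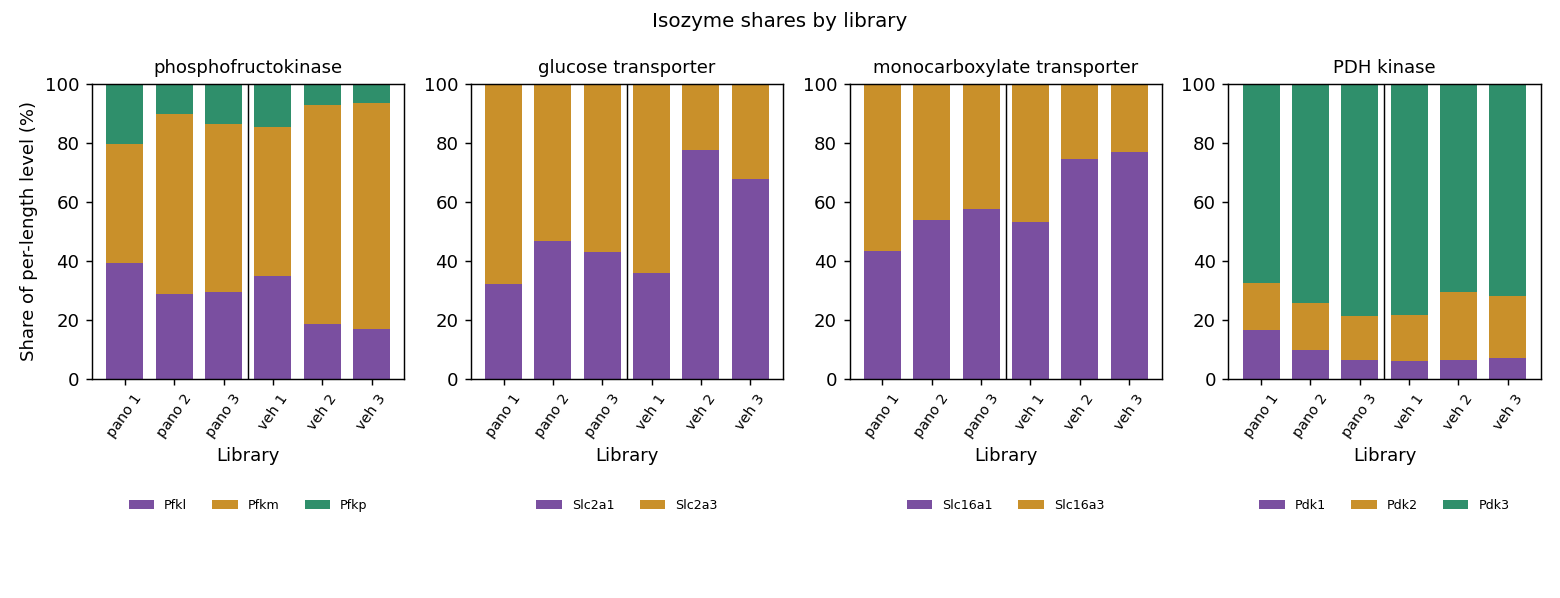
Share of each isozyme in the summed per-length level of its step, in percent, for panobinostat (pano, left of the line) and vehicle (veh) libraries. The shares of Slc2a3 and Slc16a3 are smallest in vehicle libraries 2 and 3, at 22.4 and 32.4% and at 25.5 and 23.1%.

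Among the kinases that set flux, Pdk1, which turns pyruvate away from mitochondria, had 65.1, 33.1 and 22.0 CPM in panobinostat libraries 1, 2 and 3, against 23.6, 23.2 and 24.4 CPM in vehicle libraries 1, 2 and 3. Only panobinostat libraries 1 and 2 were above vehicle. Pdk3, a second kinase of the same complex, had 83.8 to 89.8 CPM in panobinostat and 81.0 to 104 CPM in vehicle libraries. Pfkfb3, which makes the activator of phosphofructokinase, had 65.3, 19.6 and 20.1 CPM in panobinostat libraries and 29.4, 10.7 and 9.43 CPM in vehicle libraries. In both groups library 1 was about as far above its fellows, 3.29 times their mean with panobinostat and 2.92 times with vehicle. The log2 fold change of Pfkfb3 was 1.09 (SE 0.65), against 0.27 without panobinostat library 1 and 1.79 without vehicle library 1. Pfkfb4, a related enzyme, had 2.08 to 3.48 CPM with panobinostat and 1.16 to 2.72 CPM with vehicle.

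In the HIF pathway, Hif1a, the oxygen-labile subunit, had 165 CPM in panobinostat library 1, and 80.0 and 77.3 CPM in libraries 2 and 3, against 79.1, 76.4 and 79.5 CPM in vehicle libraries 1, 2 and 3. Outside panobinostat library 1 it was level: the log2 fold change was 0.46 (SE 0.31) over all libraries and 0.01 without that one. Arnt, the stable partner, had 56.6 to 58.9 CPM in panobinostat and 56.3 to 62.3 CPM in vehicle libraries, and Vhl 36.7 to 41.8 CPM in panobinostat and 33.4 to 40.7 CPM in vehicle libraries. Epas1, the HIF-2 alpha subunit, was near the floor, with at most 0.126 CPM.

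The oxygen sensors differed from each other. Egln1 (PHD2), the main HIF prolyl hydroxylase and itself induced by HIF, had 9.59, 3.65 and 5.58 CPM in panobinostat libraries 1, 2 and 3, against 4.77, 1.92 and 1.48 CPM in vehicle libraries 1, 2 and 3. Vehicle library 1 exceeded panobinostat library 2, and the log2 fold change was 1.20 (SE 0.57). With single libraries left out it ran from 0.76 without panobinostat library 1 to 1.87 without vehicle library 1. Egln3 (PHD3), a strongly hypoxia-induced sensor, had 345, 30 and 2 counts in panobinostat libraries, which is 9.59, 0.843 and 0.0593 CPM, against 9, 5 and 0 counts in vehicle libraries. It stood clear of the floor in panobinostat libraries 1 and 2 and did not pass the filter on low counts. Panobinostat library 1 thus had the highest value of Hif1a, Egln1 and Egln3 alike.

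Vegfa, the angiogenic ligand (chromosome 17, 46016993 to 46032377, minus strand), separated the groups. It had 412, 445 and 171 counts in panobinostat libraries 1, 2 and 3, against 84, 27 and 58 counts in vehicle libraries 1, 2 and 3. On the CPM scale that is 11.5, 12.5 and 5.07 in panobinostat libraries and 2.65, 0.775 and 1.68 in vehicle libraries, with means of 9.68 ± 4.02 CPM with panobinostat and 1.70 ± 0.940 CPM with vehicle (SD, n = 3 each). Each panobinostat library was above each vehicle library, and panobinostat library 3 was the lowest of its group. The log2 fold change was 2.51 (SE 0.56), a 5.68-fold difference. In edgeR's quasi-likelihood test its p ranked 13 among 13207 genes and its adjusted p was 0.998, and DESeq2 gave an adjusted p of 0.0105. The estimate ran from 2.16 to 2.96 with each library left out in turn. The exact two-sided permutation test of 3 libraries against 3 gave p = 0.1, the smallest this design allows.

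Of the other VEGF ligands and receptors listed, only Vegfb and Kdr were tested, and the groups overlapped for both. Vegfb, a second ligand of the family, had 11.2 to 20.1 CPM in panobinostat and 11.7 to 16.6 CPM in vehicle libraries. Vegfc, Vegfd and Pgf stayed at or below 0.379 CPM, too low to show a pattern. Of the receptors, Flt1 did not exceed 0.0632 CPM, also too low. Kdr had 0.890, 2.84 and 7.12 CPM in panobinostat libraries 1, 2 and 3, against 5.72, 0.832 and 1.42 CPM in vehicle libraries 1, 2 and 3. Its groups overlapped. Adm, a secreted vasodilator that HIF induces, had 2 counts in panobinostat library 3 and 0 counts in the other libraries, so no difference could be seen at this depth.

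**Figure D5:**
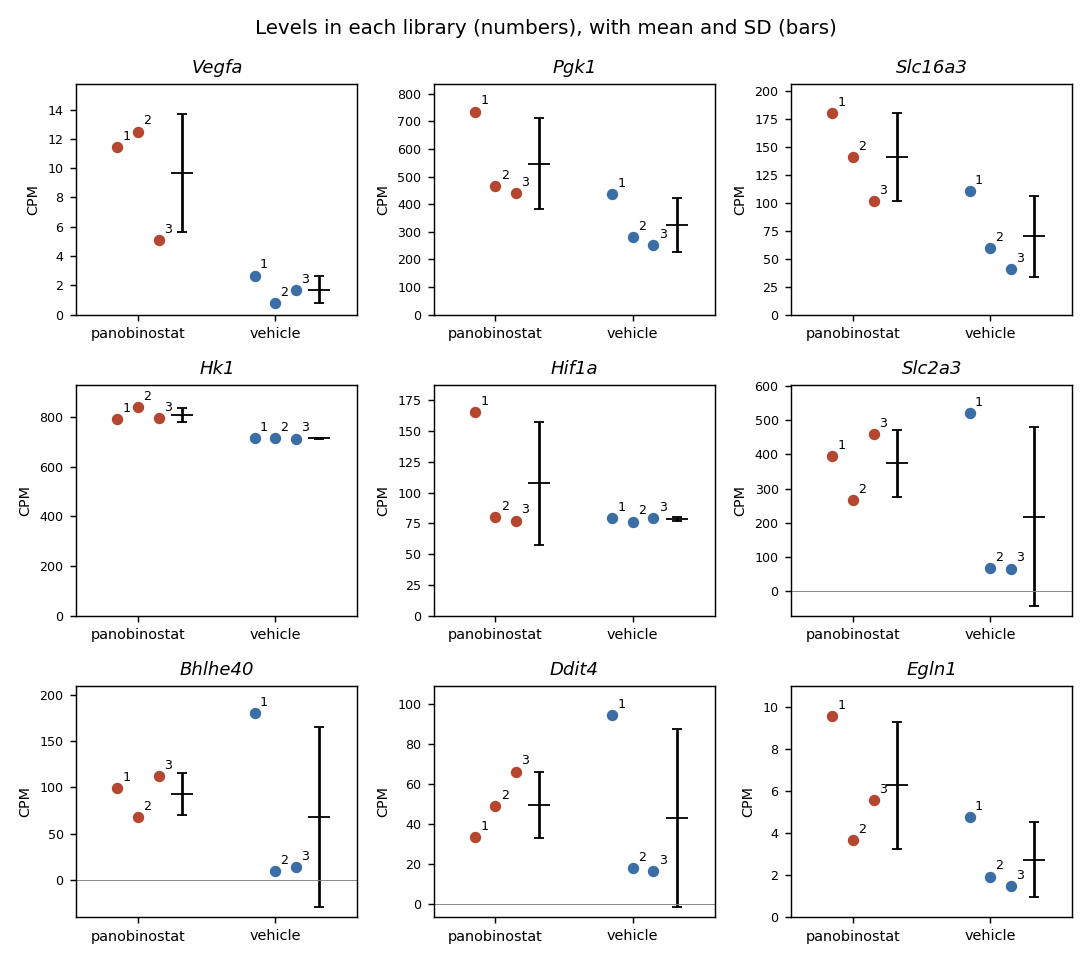
Levels in CPM of 9 members in each library, panobinostat left and vehicle right, numbered by library, with mean and SD as bars. Vegfa, Pgk1 and Hk1 separate the groups, Hif1a is high in panobinostat library 1 alone, and Slc2a3, Bhlhe40 and Ddit4 are high in vehicle library 1, with vehicle libraries 2 and 3 lowest.

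Of the other hypoxia-inducible genes, some were high in panobinostat library 1. Bnip3, a mitophagy receptor, had 38.7, 17.9 and 12.9 CPM in panobinostat libraries, against 13.5, 13.8 and 11.6 CPM in vehicle libraries 1, 2 and 3. Panobinostat library 3 lay among the vehicle values, and the log2 fold change was 0.84 (SE 0.41), or 0.25 without panobinostat library 1. P4ha2, a collagen prolyl hydroxylase subunit, had 6.84, 2.81 and 0.830 CPM in panobinostat libraries and 0.853, 1.03 and 0.435 CPM in vehicle libraries. Panobinostat libraries 1 and 2 were above vehicle and library 3 was not, with a log2 fold change of 2.17 (SE 0.79), or 1.23 without panobinostat library 1. Its paralog P4ha1 stood at 37.2 to 42.7 CPM with panobinostat and 35.0 to 44.1 CPM with vehicle.

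Others were highest in vehicle library 1. Ddit4 (REDD1), an inhibitor of mTORC1 signalling, had 33.8, 49.0 and 66.4 CPM in panobinostat libraries 1, 2 and 3, against 94.5, 17.9 and 16.8 CPM in vehicle libraries 1, 2 and 3. Bhlhe40, a transcriptional repressor, had 98.9, 67.7 and 112 CPM in panobinostat libraries and 180, 9.61 and 14.3 CPM in vehicle libraries. For both genes all panobinostat libraries were above vehicle libraries 2 and 3 and below vehicle library 1. Their log2 fold changes were 0.21 (SE 0.72) for Ddit4 and 0.45 (SE 1.07) for Bhlhe40. Without vehicle library 1 they were 1.51 and 2.94. There edgeR's quasi-likelihood test gave adjusted p of 0.0709 for Ddit4 and 0.0268 for Bhlhe40, against 0.998 for both over all 6 libraries. Leaving out the library with the highest value of both genes was bound to raise both estimates and is no independent support.

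Among the rest, Bnip3l, the mitophagy receptor that also clears mitochondria from red cell precursors, had 319.5 to 430.5 CPM in panobinostat and 403 to 456 CPM in vehicle libraries, and its pseudogene Bnip3l-ps held 15.9 to 17.3% of the pair's counts. Kdm3a, a histone demethylase, had 112 to 121 CPM in panobinostat and 113 to 142 CPM in vehicle libraries. Higd1a, a mitochondrial inner membrane protein, had 32.9 to 36.0 CPM in panobinostat and 31.5 to 39.1 CPM in vehicle libraries. Ankrd37, an ankyrin repeat protein, had 3.53 to 5.12 CPM in panobinostat and 3.89 to 4.42 CPM in vehicle libraries. Ndrg1, a stress-response gene, had 3, 2 and 2 counts in panobinostat libraries and 10, 3 and 6 counts in vehicle libraries. Its CPM was lower in every panobinostat library than in any vehicle library, but it lay near the floor and was not tested. The log2 fold changes of Ankrd37, P4ha1, Higd1a and Kdm3a lay between -0.18 and 0.06.

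The members therefore varied between libraries in more than one way. Panobinostat library 1 exceeded 1.5 times the mean of panobinostat libraries 2 and 3 for 16 of 37 tested members (43.2%), against 10.7% of all genes. These were Aldoa, Bnip3, Egln1, Eno1, Gpi1, Hif1a, Hk2, P4ha2, Pdk1, Pfkfb3, Pfkfb4, Pfkl, Pfkp, Pgam1, Pgk1 and Pkm. Vehicle library 1 exceeded 1.5 times the mean of vehicle libraries 2 and 3 for 13 of them (35.1%), against 18.4% of all genes. These were Aldoa, Aldoc, Bhlhe40, Ddit4, Egln1, Pfkfb3, Pfkfb4, Pgk1, Pkm, Slc16a3, Slc2a1, Slc2a3 and Vegfa. Vehicle library 3 was the lowest library for 16 of the 19 tested glycolytic members (84.2%), against 18.1% of all genes tested. Megakaryocyte markers, 6 in the list, summed to 14.6, 79.6 and 111 CPM in panobinostat libraries 1, 2 and 3, against 173, 7.37 and 6.41 CPM in vehicle libraries 1, 2 and 3. Itga2b and Pf4 carried most of that sum, and Gp1bb was at 0 in 2 libraries. Itga2b, Pf4 and genes such as Slc2a3, Bhlhe40 and Ddit4 were high and low in the same vehicle libraries. Gp9 differed less there (3.98, 2.41 and 2.67 CPM). Of the mast cell list, Fcer1a and Cma1 shared that vehicle pattern. Fcer1a had 27.4, 33.1 and 30.4 CPM in panobinostat libraries and 60.8, 4.82 and 2.99 CPM in vehicle libraries. Cma1 had 139, 42.8 and 62.3 CPM against 84.5, 5.71 and 2.15 CPM. In that list 4 of 11 tested markers were instead lowest in vehicle library 1. In panobinostat library 1, where the megakaryocyte sum was lowest of its group, Slc2a3 had 396 CPM and Bhlhe40 98.9 CPM, neither the lowest of its group. Ddit4, at 33.8 CPM there, was the lowest of its group. The part of cells carrying any of these markers in these values was not tested.

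Without both libraries numbered 1, a choice made after the data were seen, 12 of 37 tested members were called higher and 1 lower by edgeR's quasi-likelihood test, where 7.36% of all genes tested were called higher and 4.65% lower. This leaves 2 libraries per group. The 7 glycolytic genes called higher were Slc2a3, Pfkp, Aldoa, Aldoc, Pgk1, Pkm and Slc16a3, with adjusted p from 0.00232 for Pkm to 0.0351 for Pfkp. Pfkm was called lower, with a log2 fold change of -0.69 and an adjusted p of 0.0207. Pfkfb3, Egln1, Vegfa, Ddit4 and Bhlhe40 were the others called higher, with log2 fold changes of 0.97, 1.43, 2.82, 1.72 and 2.90. In that setting Hif1a stood at 0.00 (SE 0.08), Eno1 at 0.10 (SE 0.10) and Gapdh at 0.10 (SE 0.10) on the log2 scale, and none of these was called. With vehicle library 1 alone left out, Slc2a3 and Bhlhe40 were called higher, where 2.0% of all genes were called higher and 0.419% lower. Slc2a3, Bhlhe40 and Ddit4 had their highest value in that library, so calls without it are no independent support for them.

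The neighbouring genes of both pathways, from lists chosen with earlier results of these data known, had estimates on both sides. Of 25 further genes of glycolysis and its branches, 19 passed the filter, and their estimates were higher for 9 and lower for 10, with a median of -0.06 and 0 called in either direction. Mpc1, a subunit of the mitochondrial pyruvate carrier, had 49.6, 45.7 and 45.8 CPM in panobinostat libraries, against 51.1, 65.0 and 61.3 CPM in vehicle libraries 1, 2 and 3. Pdk2, a further kinase of pyruvate dehydrogenase, had 25.6, 22.0 and 21.2 CPM in panobinostat libraries and 25.9, 34.9 and 28.8 CPM in vehicle libraries. These were the only tested genes of that list whose groups did not overlap, and both were lower with panobinostat. Pklr, the pyruvate kinase of liver and red cells, had 6.89, 53.9 and 48.6 CPM in panobinostat libraries and 26.7, 64.4 and 68.4 CPM in vehicle libraries.

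Of 32 further genes of hypoxia and VEGF signalling, 19 passed the filter, and their estimates were higher for 11 and lower for 8, with a median of 0.15 and 0 called in either direction. Mif, a cytokine, had 107, 106 and 93.2 CPM in panobinostat libraries 1, 2 and 3, against 85.5, 53.1 and 45.7 CPM in vehicle libraries 1, 2 and 3. Angptl4 and Hilpda, which act in fat storage and its release, also had panobinostat libraries above all vehicle libraries, at 18.3 to 19.9 against 13.0 to 17.9 CPM and at 8.88 to 10.5 against 7.04 to 8.44 CPM. Egln2, a prolyl hydroxylase that HIF does not induce, stood at 50.8 to 58.1 CPM with panobinostat and 51.0 to 61.3 CPM with vehicle. Hif3a, a HIF alpha subunit, had 24.2, 60.0 and 61.9 CPM in panobinostat libraries and 20.9, 20.1 and 34.4 CPM in vehicle libraries, where vehicle library 3 exceeded panobinostat library 1. The genes of these lists named here were chosen after their values were seen.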

How the data were processed

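The authors deposited raw counts of reads per Entrez gene for 6 libraries, all whole numbers with unequal totals. The aligner HISAT2 (2.1.0), the counter featureCounts from Subread (2.0.0), the trimmer cutadapt (2.1) and build mm10 are named per the submitters' processing notes. Not given in the sources used here are options, gene annotation and strandedness, so counts of near-identical copies and of antisense genes such as Hk1os are uncertain. Each column is named by its treatment and by a number that is not tied to the labels' replicate numbers, and libraries are named by it. Of 27179 identifiers, 25275 matched a symbol in RefSeq's GRCm38.p6 table. Coordinates are 1-based in that assembly. Exon lengths are the union of all exons annotated for a gene in GENCODE M21 on GRCm38.

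Members, lists and tests were chosen with earlier results of these data known. Named genes were those of a list of symbols, the pair with the smallest p in each role, and members that failed the filter, and the other members are given by values or ranges.

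All genes passing filterByExpr (minimum count 10) were fitted in edgeR 4.0.16 under R 4.3.3, with TMM factors and the robust quasi-likelihood F-test, on panobinostat against vehicle. Tests were two-sided, with Benjamini and Hochberg adjustment over all genes tested and a threshold of 0.05. CPM uses TMM-scaled library sizes. A standard error is the log2 fold change divided by the square root of F. The test was tried on simulated counts. Alternatives were other scalings and filters, DESeq2 1.42.0, limma-voom (limma 3.58.1), a replicate block and each library left out. Protein identities of isozymes were not analysed here. Single values of some marker genes are not reported here.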

Additional observations from a re-analysis of the deposited data

How the results depend on the processing

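With each library left out in turn, the calls over all genes ran from 0 to 324 and the members called from 0 to 2, both highest without vehicle library 1. DESeq2 called 9 genes and 1 member, and 1590 genes and 13 members were called without both libraries numbered 1. The number of members with a higher estimate ran from 27, without vehicle library 3, to 31. Left-out libraries moved the median log2 fold change from 0.27 to 0.72 for glycolytic enzymes and transporters, from -0.035 to 0.48 for other hypoxia-inducible genes, from -0.0026 to 0.64 for the HIF pathway and from 0.24 to 0.89 for the flux kinases. The HIF pathway medians do not all cover the same genes. Egln3 passed the filter without panobinostat library 3, which gave the 0.64, and without any 1 vehicle library. Those fits tested 5 HIF pathway genes, against 4 in the main fit. Left-out libraries moved the glycolytic minus other hypoxia difference from 0.056 to 0.65. Without both libraries numbered 1 this difference was 0.10 and the HIF pathway median -0.023. Limma-voom gave the other hypoxia-inducible genes a median of 0.35. Vegfa was 2.50 in DESeq2 (adjusted p 0.0105) and 2.82 without both libraries numbered 1 (edgeR adjusted p 0.0420), and its adjusted p over all alternatives ran from 0.0105 to 1.0.

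The fit with a replicate block gave the other hypoxia-inducible genes a median of 0.36, a glycolytic minus other hypoxia difference of 0.14, Vegfa 2.53 and 0 calls. A panobinostat and a vehicle column share each number, and the labels state no pairing. The block lowered the SE of Pfkfb3 from 0.65 to 0.12, of Pkm from 0.56 to 0.14 and of Pgk1 from 0.29 to 0.10. It also lowered the SE of Aldoa from 0.30 to 0.11, of Slc16a3 from 0.40 to 0.16 and of Egln1 from 0.57 to 0.32. It raised the SE of Slc2a1 from 0.34 to 0.43, of Ddit4 from 0.72 to 0.83 and of Vegfa from 0.56 to 0.59. Over all genes tested, deviations of same-numbered libraries from their group means had r of -0.139, 0.0720 and -0.203. The numbers were therefore not taken as pairs in the main fit.

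Signs turned for members near 0 with 1 library left out. The log2 fold change ran from -0.0775 to 0.45 for Slc2a1, from -0.088 to 0.17 for Slc16a1, from -0.13 to 0.046 for Pdk3, from -0.040 to 0.11 for Vhl, from -0.10 to 0.18 for Ankrd37 and from -0.17 to 1.51 for Ddit4. It ran from -0.049 to 0.11 for P4ha1, from -0.076 to 0.086 for Higd1a and from -0.058 to 2.94 for Bhlhe40. Without both libraries numbered 1, Slc16a1 was -0.048, Pdk3 0.042, Vhl -0.10 and Bnip3l 0.016. The cause was not tested. Depth limits Adm, Epas1, Ndrg1 and Eno2, which lie at or near 3 counts in several libraries.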
